A study of Mus musculus with 25 samples.

Results

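Loss of Mlkl was examined in mouse neutrophils that already lacked Ripk3. The comparison set 2 libraries of Ripk3-/- Mlkl-/- cells (replicates 2 and 3) against 3 libraries of Ripk3-/- cells (replicates 1 to 3), 5 of the 25 libraries of the series, chosen by their genotype labels. A further library titled as the first replicate of the double knockout was left out because its title and its genotype label conflict. The cells were bone marrow neutrophils taken between the 68% and 78% layers of a Percoll gradient. The mice were C57BL/6J females aged 6 to 13 weeks and labelled as not inflamed. Ptpn6 and Casp8 were intact in both groups, and both groups shared the Ripk3 knockout, so the single labelled difference was Mlkl. Messenger RNA was sequenced as paired reads of 100 bases. The labels give separate samples and do not say that each came from its own mouse. The p-values of changes between groups rest on the spread between samples within groups, pooled over 9 groups of the series. This spread may be technical. Knockout here means absence throughout the body, not in neutrophils alone, and such alleles can carry linked DNA from the strain in which they were made. For reference, Mlkl-/- cells were set against wild type cells (3 libraries each), and Ripk3-/- Mlkl-/- Ptpn6∆PMN cells against Ripk3-/- Ptpn6∆PMN cells (3 libraries each), where Ptpn6∆PMN marks deletion of Ptpn6 in neutrophils as the labels name it. The labels do not name the Cre driver.

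Ripk3 is a kinase that carries death signals from tumour necrosis factor receptors, from Toll-like receptors through Ticam1 and from the nucleic acid sensor Zbp1. It phosphorylates Mlkl, which then assembles at the plasma membrane and breaks it open, the form of cell death called necroptosis, while caspase-8 holds this route back. Ripk3 also has activities that do not pass through Mlkl, and removing Mlkl in cells that already lack Ripk3 asks what Mlkl adds to the transcript profile when its usual activating kinase is gone.

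The 5 libraries held between 22204980 and 22767172 estimated counts each. Levels are given as CPM, counts scaled to effective library size, and changes are log2 values of Ripk3-/- Mlkl-/- over Ripk3-/-. The neutrophil markers were high in every library, with a summed level of 74954 to 110218 CPM in Ripk3-/- Mlkl-/- cells and 90848 to 94517 CPM in Ripk3-/- cells. Their mean log2 CPM was 11.49 and 10.72 in Ripk3-/- Mlkl-/- replicates 2 and 3, against 11.23, 11.24 and 11.28 in Ripk3-/- libraries. Of the 19 other labelled libraries, 18 were at or above replicate 3. The median log2 change of these markers was 0.21 without replicate 3 and -0.22 without replicate 2. The root mean square log2 distance was 0.650 between the 2 Ripk3-/- Mlkl-/- libraries and 0.500 to 0.555 between pairs of Ripk3-/- libraries, and 0.517 to 0.636 across the groups. Ripk3-/- Mlkl-/- replicate 2 stood highest of the 5 in interferon response genes. Ripk3-/- Mlkl-/- replicate 3 stood lowest in neutrophil markers, azurophil granule genes and eosinophil markers and highest in macrophage and erythroid markers.

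The targeted genes followed the labels. Ripk3 had 1 count in each Ripk3-/- Mlkl-/- library, against 1, 0 and 0 counts in the Ripk3-/- libraries. Mlkl was at 0.604 and 0.850 CPM (13 and 20 counts) in Ripk3-/- Mlkl-/- cells, against 1.85, 1.40 and 1.58 CPM (45, 33 and 37 counts) in Ripk3-/- cells. The groups did not overlap, and the log2 change was -1.14 (SE 0.46, unadjusted p = 0.0236, edgeR adjusted p = 0.974). Mlkl was low in these cells even where the gene was intact, at 4.22 ± 0.680 CPM in wild type (SD, n = 3), and the counts, taken over the whole gene, do not separate the deleted part from the rest. Ptpn6 was at 631 and 551 CPM in Ripk3-/- Mlkl-/- cells, against 517, 590 and 534 CPM in Ripk3-/- cells, and the ranges overlapped. Casp8 was at 29.7 and 33.5 CPM in Ripk3-/- Mlkl-/- cells, against 32.0, 31.5 and 29.2 CPM in Ripk3-/- cells, again with overlap.

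Adding Mlkl loss to Ripk3 loss gave no gene that passed the threshold. The edgeR quasi-likelihood test called 0 of 16206 genes (0%) at a Benjamini-Hochberg adjusted p under 0.05. At an unadjusted p under 0.05 there were 597 genes, 296 higher (1.83%) and 301 lower (1.86%). DESeq2 called 1 gene, Slc15a2. Groups did not overlap in 1886 genes that lay higher in Ripk3-/- Mlkl-/- cells (11.6%) and 2173 that lay lower (13.4%), and the median log2 change over all genes was -0.01. The precision, which rests on the spread pooled over groups, differed with level. The 95% interval of the change had a median half-width of 1.23 log2 units in genes under 1 CPM, 0.70 between 1 and 10 CPM, 0.35 between 10 and 100 CPM and 0.34 above. It excluded a 2-fold change in either direction for 9727 genes (60.0%), among them 96.6% of those above 100 CPM. For the remaining genes the interval did not exclude a 2-fold change. Leaving out Ripk3-/- Mlkl-/- replicate 3 gave 13 called genes, all lower. Among them were the ribosomal protein gene Rps6 and Wdr89. Rps6 was at 7.95 CPM in replicate 2, the library that was left, and at 24.9 CPM in replicate 3, against 23.9, 35.9 and 28.3 CPM in Ripk3-/- cells. These calls rested on 1 library.

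**Figure D1:**
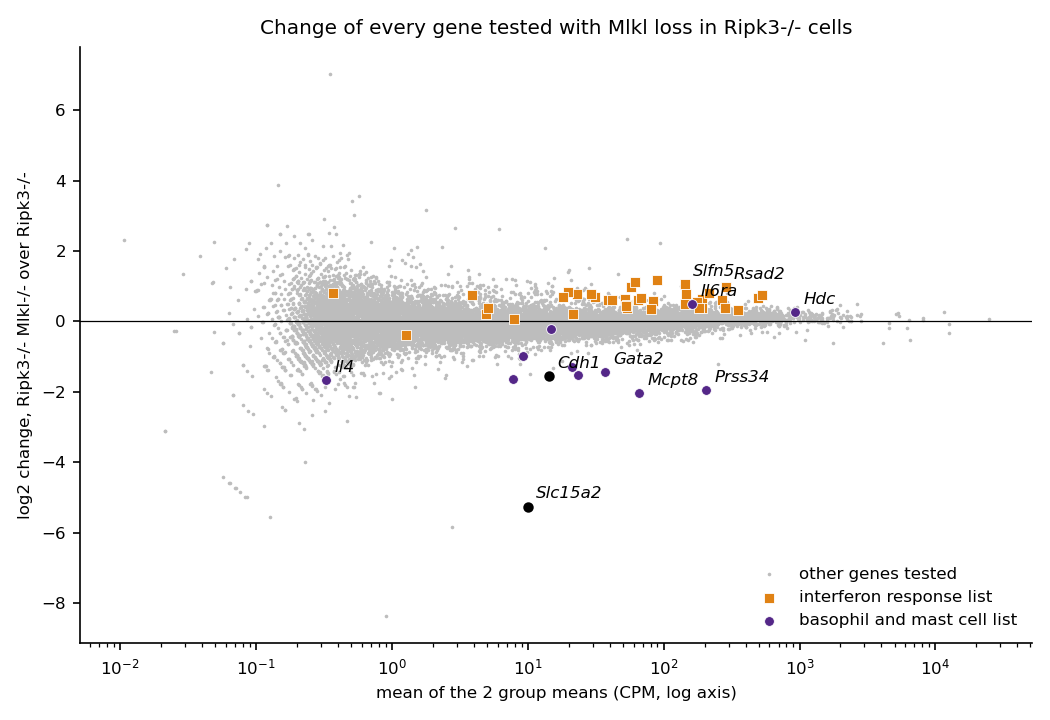
Change of each of the 16206 genes tested (y axis, log2 of Ripk3-/- Mlkl-/- over Ripk3-/-) against its level (x axis, mean of the 2 group means in CPM, log axis), with interferon response genes as orange squares and basophil and mast cell genes as purple circles. Most genes lie near 0, Slc15a2 lies at -5.26, 38 of 39 interferon genes lie above 0 and 9 of 11 basophil genes below it.

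Slc15a2, a proton-coupled transporter of short peptides, had the smallest p of all genes. It was at 0.139 and 0.850 CPM in the Ripk3-/- Mlkl-/- libraries, against 4.92, 11.8 and 42.0 CPM in the Ripk3-/- libraries. Both double knockout libraries lay below every other labelled library, and the single knockouts themselves spread widely. The log2 change was -5.26 (SE 1.19, 95% interval -7.76 to -2.76, unadjusted p = 0.000315, edgeR adjusted p = 0.974), and DESeq2 gave -5.29 with an adjusted p of 0.00103. Over the 19 labelled libraries outside the comparison, Slc15a2 ran from 3.80 to 66.3 CPM with a median of 16.9 CPM. The gene is at chr16:36750161-36785158 of GRCm38.p6, away from both targeted genes.

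Basophil and mast cell genes lay lower together in Ripk3-/- Mlkl-/- cells. Of 11 list members tested, 9 lay below 0, with a median log2 change of -1.44 against -0.01 over all genes, and 7 lay lower without overlap (63.6%, against 13.4% of all genes), but none passed the threshold. The list was chosen with earlier results of these data known. The basophil protease genes had the widest gaps. Mcpt8 was at 28.8 and 22.9 CPM in Ripk3-/- Mlkl-/- cells, against 103, 81.9 and 134 CPM in Ripk3-/- cells, a log2 change of -2.04 (SE 0.55, unadjusted p = 0.00162, edgeR adjusted p = 0.974). Prss34 was at 105 and 64.0 CPM, against 325, 244 and 409 CPM, a log2 change of -1.95 (SE 0.52, unadjusted p = 0.00139). In both protease genes the lowest single knockout library was more than 2 times the highest double knockout library. Gata2, a transcription factor of basophil and mast cell development, was at 19.71 and 19.97 CPM in Ripk3-/- Mlkl-/- cells, against 53.9, 44.1 and 63.2 CPM in Ripk3-/- cells (log2 change -1.44, SE 0.40). The mast cell carboxypeptidase gene Cpa3 was at 13.2 and 10.8 CPM, against 33.7, 30.8 and 39.5 CPM in Ripk3-/- cells (log2 change -1.53, SE 0.44). Genes of the high-affinity IgE receptor followed the same order. Its beta chain gene Ms4a2 was at 14.2 and 10.2 CPM in Ripk3-/- Mlkl-/- cells, against 29.1, 27.1 and 34.2 CPM in Ripk3-/- cells, and its alpha chain gene Fcer1a was at 4.14 and 3.44 CPM, against 7.13, 12.2 and 15.8 CPM. Il4, a cytokine that basophils secrete, was under 1 CPM in all 5 libraries, at 0.139 and 0.170 CPM in Ripk3-/- Mlkl-/- cells, against 0.533, 0.255 and 0.727 CPM in Ripk3-/- cells. Cd200r3 overlapped between the groups. The members on the other side of 0 were Hdc, the histamine-making enzyme, at 987 and 1046 CPM in Ripk3-/- Mlkl-/- cells against 751, 827 and 966 CPM in Ripk3-/- cells, and Il6ra, at 216 and 165 CPM against 134, 135 and 136 CPM. Both are also transcribed in neutrophils, and Hdc makes up most of the summed level of the list, 1362 to 1408 CPM in Ripk3-/- Mlkl-/- cells and 1426 to 1832 CPM in Ripk3-/- cells. In bulk RNA, fewer basophils among the collected cells and less RNA of these genes per cell cannot be told apart. Leaving out any 1 of the 5 libraries moved the list median only between -1.56 and -1.30.

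Prss34 and Cpa3 are shown because these basophil-list genes moved side by side and each holds 1 match to the letters bound by GATA factors. The stretches are RefSeq promoters of GRCm38.p6, from 250 bases before to 50 bases after the start of the gene, with the match (AGATAA or TGATAA, searched on both strands) in capitals, at chr17:25298144-25298443 on the plus strand for Prss34 and chr3:20242132-20242431 on the minus strand for Cpa3.
Prss34: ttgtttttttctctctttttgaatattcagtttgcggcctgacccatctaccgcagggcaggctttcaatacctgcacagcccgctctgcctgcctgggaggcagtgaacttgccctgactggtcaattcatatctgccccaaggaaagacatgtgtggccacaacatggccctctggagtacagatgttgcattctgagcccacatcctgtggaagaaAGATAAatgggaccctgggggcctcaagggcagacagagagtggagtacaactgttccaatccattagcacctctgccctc
Cpa3: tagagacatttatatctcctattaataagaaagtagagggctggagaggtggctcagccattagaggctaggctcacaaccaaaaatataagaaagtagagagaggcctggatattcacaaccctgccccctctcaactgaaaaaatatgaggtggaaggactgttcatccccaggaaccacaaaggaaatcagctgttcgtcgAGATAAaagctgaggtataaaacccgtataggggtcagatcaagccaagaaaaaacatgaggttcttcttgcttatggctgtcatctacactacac
The match begins 31 bases before the start of Prss34 and 46 bases before that of Cpa3. Of the 11 list genes tested, 7 (63.6%) have such a match in a promoter, against 21.0% of the 27025 genes with a promoter entry. The entries of Mcpt8 and Gata2 hold none of these letters, although both genes lay lower without overlap. The 7 genes with a match are therefore not the same 7 that lay lower without overlap. This share describes the list and not the change with Mlkl loss. A match is a description of the sequence and shows no binding.

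**Figure D2:**
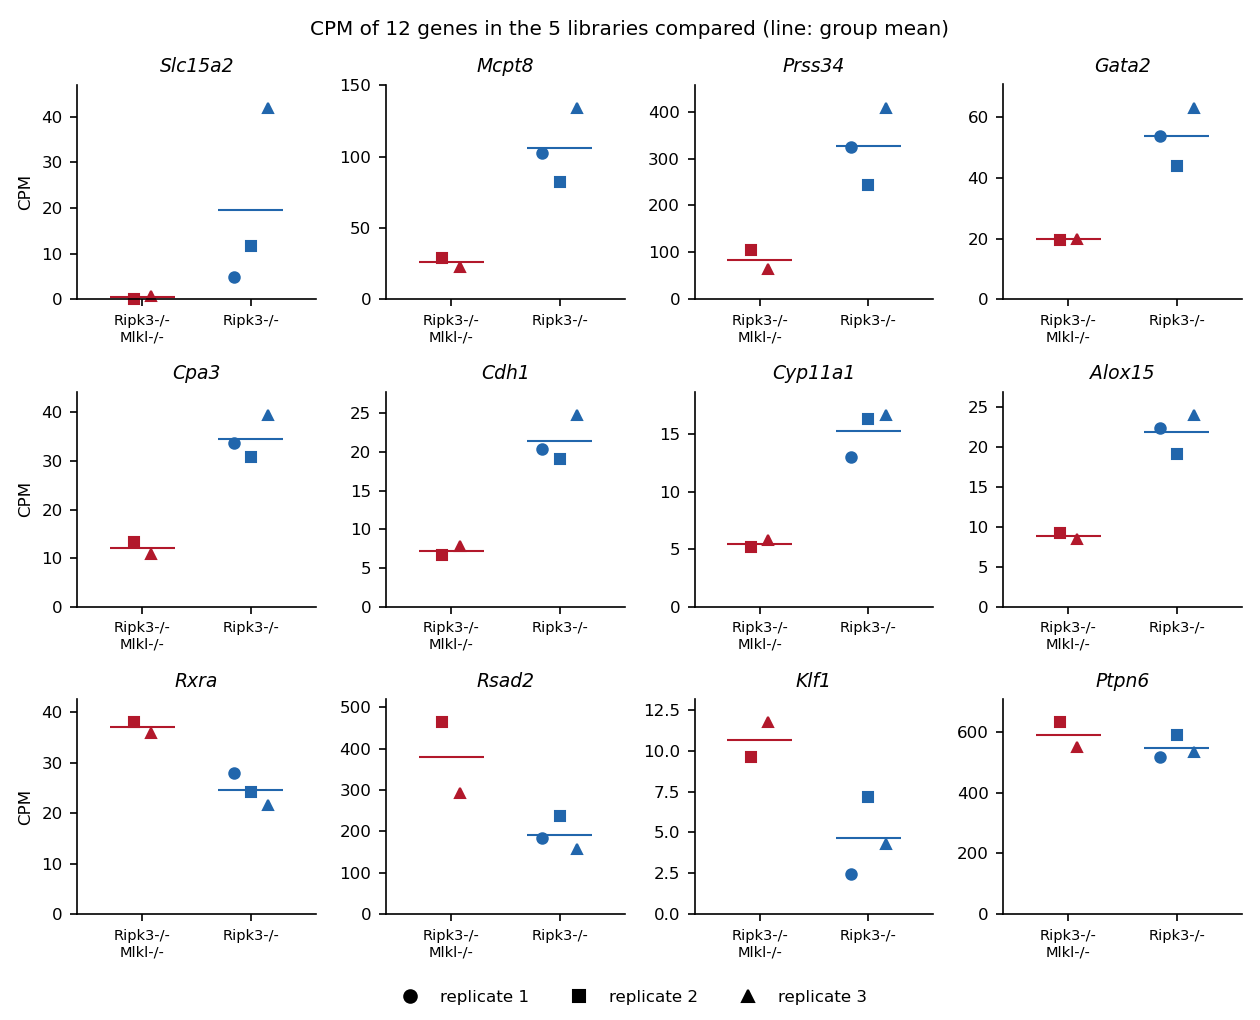
CPM (y axis, from 0) of 12 genes in each of the 5 libraries, Ripk3-/- Mlkl-/- in red at the left and Ripk3-/- in blue, with symbols for the replicate number and a line at the group mean. The first 8 genes lie lower in both Ripk3-/- Mlkl-/- libraries than in every Ripk3-/- library, Rxra, Rsad2 and Klf1 lie higher, and Ptpn6 overlaps.

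The other genes of smallest p on the lower side were not on the basophil list. Cdh1, which encodes the adhesion protein E-cadherin, was at 6.65 and 7.86 CPM in Ripk3-/- Mlkl-/- cells, against 20.38, 19.04 and 24.78 CPM in Ripk3-/- cells (log2 change -1.56, SE 0.38, unadjusted p = 0.000576). Cyp11a1, the first enzyme of steroid hormone synthesis, was at 5.16 and 5.78 CPM, against 13.0, 16.3 and 16.6 CPM (log2 change -1.48, SE 0.41). Alox15, a lipoxygenase gene on the eosinophil marker list, was at 9.20 and 8.50 CPM, against 22.47, 19.21 and 24.05 CPM (log2 change -1.31, SE 0.37). These 3 genes were more than 2 times lower in both double knockout libraries than in any single knockout library. Itga2b, the integrin chain used as a platelet marker, was at 10.6 and 11.8 CPM in Ripk3-/- Mlkl-/- cells, against 22.7, 21.5 and 28.8 CPM in Ripk3-/- cells (log2 change -1.12, SE 0.28). Stx3, a syntaxin of vesicle fusion, was at 5.72 and 4.08 CPM, against 9.84, 9.48 and 10.95 CPM (log2 change -1.04, SE 0.29). Rnaset2b, an RNase T2 gene, was at 21.0 and 29.7 CPM, against 34.7, 39.7 and 37.9 CPM, and is uncertain because reads can be split with its near-identical copy. None of these genes passed the threshold (edgeR adjusted p = 0.974 for each).

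Cdh1, Cyp11a1, Alox15, Itga2b and Stx3 tracked the basophil list in the 19 labelled libraries outside the comparison, 18 of which also entered the pooled spread behind the p-values that chose these genes. Over those libraries, the log2 CPM of Cdh1 correlated with the mean log2 CPM of the basophil list with Pearson's r = 0.94 and Spearman's rho = 0.94. For Cyp11a1 both were 0.95, for Itga2b r was 0.93 and rho 0.96, for Alox15 r was 0.93 and rho 0.94, and for Stx3 r was 0.86 and rho 0.84. For each of these the adjusted permutation p was at most 6.8e-05 over 17 genes compared (raw p = 1e-05, the smallest 100000 permutations can give, or 2e-05 for Stx3), for r and for rho. Without the 2 libraries farthest from the median of the list, r was between 0.71 and 0.93 for the 5 genes, and after subtracting group means it was between 0.85 and 0.99 over 18 libraries. Slc15a2 (r = -0.15, rho = -0.32, adjusted permutation p = 0.537 and 0.241) and Rnaset2b (r = 0.39, rho = 0.45, adjusted permutation p = 0.152 and 0.0952) did not pass. Without the 2 farthest libraries r was -0.60 for Slc15a2. Of the 10 genes of smallest p on the higher side, 3 ran against the list at an adjusted permutation p under 0.05 for r and for rho. Rxra had r = -0.75 and rho = -0.77 (adjusted permutation p = 0.000708 and 0.000595), with r = -0.67 without the 2 farthest libraries and -0.51 after subtracting group means. Nsmf had r = -0.57 and rho = -0.60 (adjusted permutation p = 0.0261 and 0.0178), with r = -0.44 and 0.05 in the same checks. Ibtk had r = -0.53 and rho = -0.57 (adjusted permutation p = 0.0414 and 0.0246), with r = -0.30 and -0.55. Vps39 passed for rho alone (rho = -0.56, adjusted permutation p = 0.0246; r = -0.46, adjusted permutation p = 0.0725). The points share library scaling, and the permutations moved libraries freely across genotype groups, so differences between groups enter these p-values. Whether the lower levels of the 5 genes in Ripk3-/- Mlkl-/- cells came with the basophil markers or apart from them was not tested. The same holds for the higher levels of Rxra, Nsmf and Ibtk.

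On the higher side the 10 genes of smallest p had log2 changes from 0.38 (Dcun1d1) to 1.27 (Mertk). Rxra, a nuclear receptor that pairs with the retinoic acid and vitamin D receptors, was at 38.0 and 36.0 CPM in Ripk3-/- Mlkl-/- cells, against 28.0, 24.1 and 21.5 CPM in Ripk3-/- cells (log2 change 0.59, SE 0.14, unadjusted p = 0.000383, edgeR adjusted p = 0.974). Both values were above those of all 19 other labelled libraries, which ran from 16.4 to 32.1 CPM. Vps39, a subunit of the HOPS tethering complex of late endosomes and lysosomes, was at 69.2 and 71.2 CPM, against 57.6, 50.0 and 51.1 CPM (log2 change 0.41, SE 0.12). Mertk, a receptor for engulfing dead cells, was at 3.25 and 7.14 CPM, against 2.30, 2.34 and 1.84 CPM (log2 change 1.27, SE 0.37, and 0.59 without Ripk3-/- Mlkl-/- replicate 3), and is itself on the macrophage marker list. Fam168a was at 59.7 and 60.3 CPM, against 44.9, 44.1 and 39.5 CPM (log2 change 0.49, SE 0.15). In all 10 genes the groups did not overlap (11.6% of all genes lay higher without overlap), which the choice by smallest p favours. The others were Ibtk, an inhibitor of Bruton's tyrosine kinase (log2 change 0.46), Dcun1d1, a factor of cullin neddylation (0.38), and Cir1, a corepressor (0.39). Nsmf (0.47), Zfand4 (0.75) and Eif2ak2, the kinase that senses double-stranded RNA (0.70), completed the 10. Their log2 changes moved by over 1.5 times with 1 double knockout library left out, to 0.30 for Nsmf and 0.39 for Zfand4 without replicate 3 and to 0.41 for Eif2ak2 without replicate 2.

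Interferon response genes lay higher in Ripk3-/- Mlkl-/- cells, and most of the distance came from replicate 2. Of 39 tested members, 38 had a log2 change above 0 (48.0% of all genes did), with a median of 0.62 against -0.01 over all genes. Groups did not overlap in 24 members that lay higher (61.5%, against 11.6% of all genes), 21 had an unadjusted p under 0.05 (1.83% of all genes lay higher at that p), and none passed the threshold. The mean log2 CPM of the list was 6.28 and 5.58 in Ripk3-/- Mlkl-/- replicates 2 and 3, against 5.56, 5.45 and 5.07 in Ripk3-/- replicates 1, 2 and 3, so replicate 3 lay next to the highest single knockout library. Without Ripk3-/- Mlkl-/- replicate 2 the median was 0.18, and without replicate 3 it was 0.87. Rsad2, which encodes the antiviral enzyme viperin, was at 463 and 294 CPM in Ripk3-/- Mlkl-/- cells, against 183, 237 and 157 CPM in Ripk3-/- cells (log2 change 0.98, SE 0.35, unadjusted p = 0.0121). Cmpk2, a nucleotide kinase encoded beside Rsad2, was at 296 and 170 CPM, against 160, 150 and 138 CPM (log2 change 0.64, SE 0.23, unadjusted p = 0.0107). Oasl2, of the oligoadenylate synthetase family, was at 822 and 519 CPM, against 430, 407 and 350 CPM (log2 change 0.76, SE 0.27). In all 3 genes replicate 2 was well above replicate 3, which in turn lay above the single knockouts. Ifi204, a DNA-binding interferon-induced protein, was at 236 and 131 CPM in Ripk3-/- Mlkl-/- cells, against 101, 123 and 94.3 CPM in Ripk3-/- cells. Slfn5 overlapped between the groups, at 284 and 102 CPM, against 112, 107 and 56.8 CPM in Ripk3-/- cells. Irf9, a subunit of the transcription factor ISGF3, was at 238 and 177 CPM, against 159, 166 and 152 CPM, and starts at -0.181 Mb from the start of Ripk3.

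The promoter of Rsad2 is shown because it holds the letters of the interferon-stimulated response element (GAAA, any 2 bases, GAAA; both strands were searched) on the opposite strand, in capitals. It is the RefSeq promoter of GRCm38.p6 at chr12:26456403-26456702 on the minus strand, from 250 bases before to 50 bases after the start.
Rsad2: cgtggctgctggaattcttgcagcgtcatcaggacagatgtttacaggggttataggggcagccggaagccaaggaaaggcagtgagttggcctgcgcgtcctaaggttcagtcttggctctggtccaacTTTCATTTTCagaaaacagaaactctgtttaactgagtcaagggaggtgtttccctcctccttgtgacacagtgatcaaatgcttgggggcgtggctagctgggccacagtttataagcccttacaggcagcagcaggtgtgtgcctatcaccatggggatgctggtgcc
The match begins 120 bases before the start. Of the 29 interferon-list genes that were tested and have a promoter entry, 19 (65.5%) hold such a match on either strand, against 3.99% of the 27025 genes with an entry. The entries of Cmpk2 and Oasl2 hold none. The list consists of known interferon response genes, so this share describes the list and not the change with Mlkl loss. As above, a match shows no binding.

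The necroptosis and caspase-8 genes themselves differed little. Of 29 list members tested, 22 lay above 0 with a median of 0.10, 6 lay higher and 3 lower without overlap (20.7% and 10.3%, against 11.6% and 13.4% of all genes), and Mlkl alone had an unadjusted p under 0.05. Upstream, the receptor gene Tnfrsf1a was at 517 and 463 CPM in Ripk3-/- Mlkl-/- cells, against 357, 411 and 433 CPM in Ripk3-/- cells (log2 change 0.29, SE 0.16). The sensor gene Zbp1, also on the interferon list, was at 63.6 and 37.4 CPM, against 38.7, 34.3 and 26.1 CPM, with overlap. Ripk1, the kinase upstream of Ripk3, was at 81.7 and 67.4 CPM, against 63.1, 66.3 and 63.8 CPM (log2 change 0.21, SE 0.14). In each of the 3 genes replicate 2 was the highest of the 5 libraries. Of the ubiquitin and adaptor genes, Tab2 was at 351 and 287 CPM, against 274, 272 and 272 CPM (log2 change 0.23, SE 0.11, and 0.07 without Ripk3-/- Mlkl-/- replicate 2). Rnf31, a subunit of the linear ubiquitin ligase, was at 137 and 118 CPM, against 99.8, 107 and 105 CPM (log2 change 0.29, SE 0.16, and 0.18 without that library). The interval of Ripk1, -0.08 to 0.50, excluded a 2-fold change, as did that of Casp8, -0.31 to 0.38. The inflammasome and pyroptosis list had 11 of 16 members above 0 (median 0.10) and the BCL2 family 7 of 14 (median -0.03), with no member at an unadjusted p under 0.05 in either.

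No member of the inflammatory signalling lists passed the threshold. The NF-kB and TNF targets had 13 of 25 members above 0 (median 0.00), with a mean log2 CPM of 4.795 and 4.799 in Ripk3-/- Mlkl-/- cells, against 4.93, 5.03 and 4.96 in Ripk3-/- cells. The immediate early genes lay below 0 in 15 of 20 (median -0.18), with 4 lower without overlap (20%, against 13.4% of all genes) and a mean log2 CPM of 5.25 ± 0.132 in Ripk3-/- Mlkl-/- cells (SD, n = 2) and 5.44 ± 0.0474 in Ripk3-/- cells (SD, n = 3). In both of these lists the 2 double knockout libraries had lower means than every single knockout library. The chemokines had 5 of 11 above 0 (median -0.03), and 4 lay lower without overlap (36.4%). Ccl3, a macrophage inflammatory chemokine that basophils also make, was at 4.14 and 6.37 CPM in Ripk3-/- Mlkl-/- cells, against 11.8, 12.1 and 12.5 CPM in Ripk3-/- cells (log2 change -1.21, SE 0.37, unadjusted p = 0.00423). It was the single member of these 3 lists at an unadjusted p under 0.05. Toll-like receptor genes had 10 of 14 members above 0 (median 0.12). Tlr8, a sensor of RNA, was at 157 and 158 CPM, against 100, 111 and 136 CPM (log2 change 0.45, SE 0.19). Among chemoattractant receptors the complement receptor gene C3ar1 lay lower, at 2.65 and 3.23 CPM against 5.45, 6.37 and 5.73 CPM, and Cxcr1 lay higher, at 9.53 and 13.7 CPM against 4.59, 7.56 and 9.33 CPM. The interleukin-1 receptor gene Il1r1 lay higher at low levels, at 1.95 and 3.48 CPM against 0.697, 1.87 and 1.58 CPM. Of the antigen presentation genes, 9 of 16 lay above 0 (median 0.02), with the peptide transporter gene Tap1 at 195 and 167 CPM against 151, 151 and 138 CPM. Ptpn6 partners and Src-family genes had 15 of 19 above 0 (median 0.12).

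Neutrophil granule and maturation genes showed differences between the double knockout libraries as large as those between genotypes. Gelatinase granule and maturation genes lay above 0 in 19 of 20 (median 0.11, and -0.04 without Ripk3-/- Mlkl-/- replicate 2). The receptor gene Csf3r, for the growth factor that drives granulopoiesis, was at 5605 and 5878 CPM in Ripk3-/- Mlkl-/- cells, against 4484, 4989 and 4993 CPM in Ripk3-/- cells (log2 change 0.25, SE 0.22). Adam8 was at 1213 and 1382 CPM, against 933, 944 and 1201 CPM. Specific granule genes lay below 0 in 14 of 18 (median -0.16, and 0.06 without replicate 3), with the lactoferrin gene Ltf at 6960 and 3639 CPM, against 10145, 6615 and 6151 CPM. Camp, the cathelicidin gene, was at 1826 and 976 CPM, against 2721, 1916 and 1736 CPM. Azurophil granule genes, made by promyelocytes, lay below 0 in 10 of 11 (median -0.31), and their mean log2 CPM was 4.66 and 3.59, against 4.50, 4.60 and 4.70. Without Ripk3-/- Mlkl-/- replicate 3 the median was -0.09, and without replicate 2 it was -0.93. The protease gene Ctsg was at 8.46 and 2.93 CPM, against 10.9, 8.67 and 15.2 CPM. Cell cycle genes lay below 0 in 20 of 30 (median -0.26, and 0.16 without Ripk3-/- replicate 1). The NADPH oxidase genes had 5 of 8 above 0 (median 0.02), the glycolysis and hypoxia genes 19 of 26 (median 0.10) and the granulopoiesis factors 8 of 18 (median -0.08). No member of these lists had an unadjusted p under 0.05.

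Markers of other cells differed by library as well as by genotype. Erythroid markers lay above 0 in 16 of 16 (median 0.76, with 0.38 without Ripk3-/- Mlkl-/- replicate 3 and 1.34 without Ripk3-/- replicate 2), with 5 higher without overlap (31.2%, against 11.6% of all genes). Klf1, an erythroid transcription factor, was at 9.62 and 11.7 CPM in Ripk3-/- Mlkl-/- cells, against 2.46, 7.14 and 4.32 CPM in Ripk3-/- cells (log2 change 1.20, SE 0.70). Epor, the erythropoietin receptor gene, was at 5.90 and 9.43 CPM, against 1.35, 5.61 and 3.04 CPM, and Gata1 was at 7.07 and 6.67 CPM, against 2.54, 5.52 and 4.41 CPM. In these 3 genes and in Ermap both double knockout libraries lay above all 19 other labelled libraries. The mean log2 CPM of the erythroid list overlapped at 6.10 and 6.67 in Ripk3-/- Mlkl-/- cells, against 4.64, 6.38 and 5.51 in Ripk3-/- cells. The summed level of the list, mostly globin, overlapped at 5104 to 10566 CPM in Ripk3-/- Mlkl-/- cells and 2380 to 9964 CPM in Ripk3-/- cells. B cell markers lay below 0 in 13 of 13 (median -0.48, with -0.25 without Ripk3-/- Mlkl-/- replicate 2 and -0.84 without replicate 3), with a summed level of 752 to 1214 CPM against 1149 to 1573 CPM. Vpreb3 was at 42.4 and 63.0 CPM, against 88.8, 72.6 and 84.8 CPM, and Blnk at 34.1 and 51.6 CPM, against 72.4, 53.3 and 69.1 CPM. Plasma cell markers lay below 0 in 7 of 7 (median -0.52, with -0.23 without Ripk3-/- Mlkl-/- replicate 2 and -0.92 without replicate 3), and Xbp1, a secretory transcription factor that other cells also express, was at 75.7 and 82.0 CPM, against 98.1, 124 and 96.7 CPM (log2 change -0.43, SE 0.16, unadjusted p = 0.0148). Macrophage markers lay above 0 in 13 of 14 (median 0.72, and -0.72 without replicate 3), with Vcam1 at 7.53 and 53.2 CPM against 11.3, 20.6 and 15.6 CPM. Eosinophil markers lay above 0 in 7 of 10 (median 0.24, and -2.16 without Ripk3-/- Mlkl-/- replicate 2). Among them Epx was at 19.9 and 0.170 CPM, against 2.62, 2.46 and 11.9 CPM, so the double knockout libraries spanned the single knockouts on both sides. Alox15, described above, is on the same list and lay lower in both double knockout libraries. Monocyte markers lay above 0 in 10 of 12 (median 0.32, and -0.23 without replicate 2) and T and NK cell markers in 11 of 15 (median 0.15). Dendritic cell markers did so in 7 of 11 (median 0.22) and stem and progenitor markers in 5 of 11 (median -0.20). Megakaryocyte markers lay above 0 in 9 of 11 (median 0.73, and -0.23 without replicate 3). Their summed level went the other way, at 20.8 to 27.5 CPM in Ripk3-/- Mlkl-/- cells and 32.9 to 39.9 CPM in Ripk3-/- cells. Their mean log2 CPM overlapped, at -0.36 and 0.39 against -0.26, -0.16 and -0.19. Stroma and endothelium markers lay above 0 in 9 of 11 (median 1.87, and 0 without replicate 3), with a summed level of 64.5 to 557 CPM in Ripk3-/- Mlkl-/- cells and 54.7 to 201 CPM in Ripk3-/- cells. Their mean log2 CPM was 0.42 and 2.34, against -0.63, 1.09 and -0.81. The part of these cells in any result above was not tested.

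**Figure D3:**
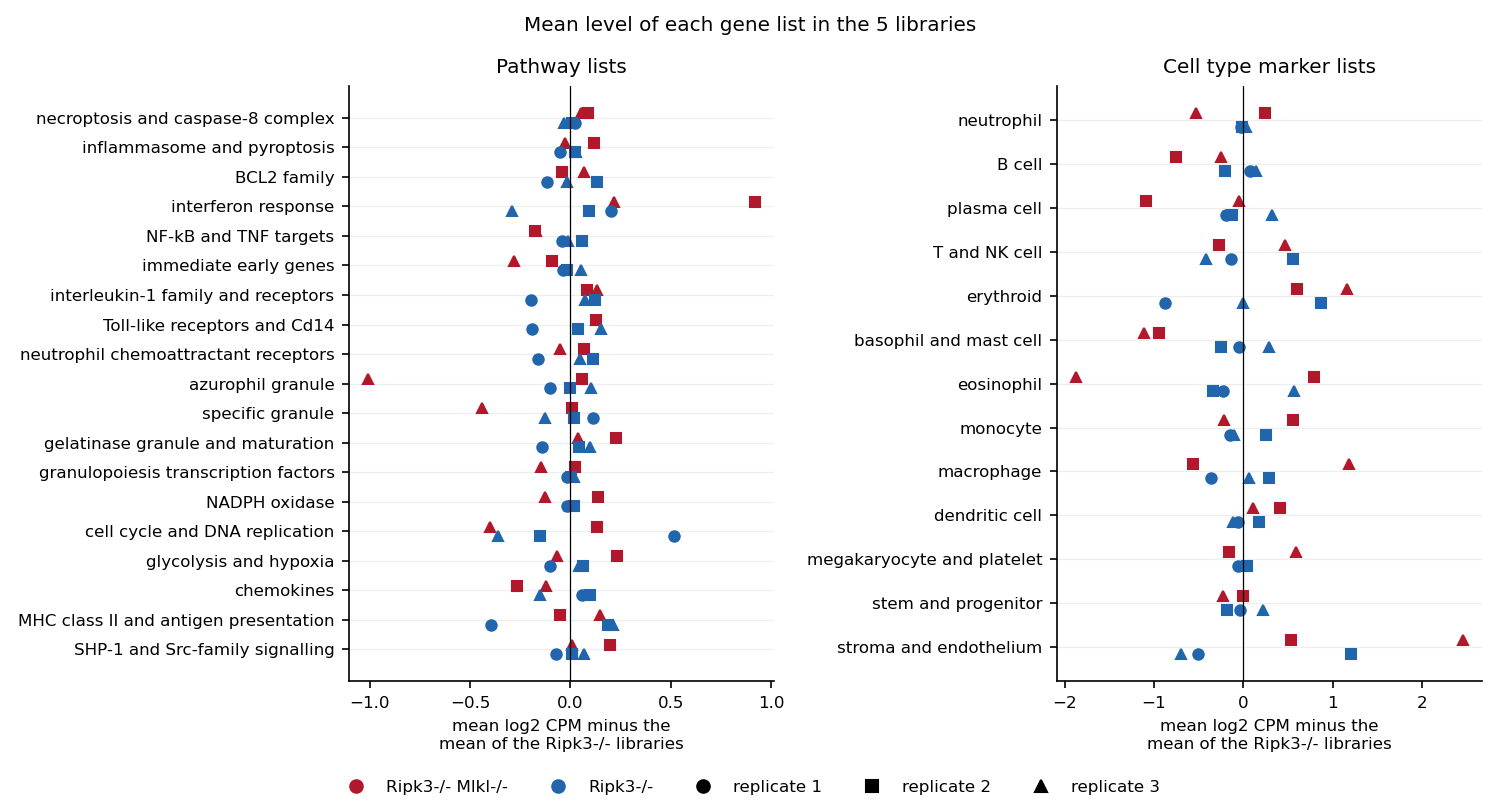
Mean log2 CPM of each pathway list (left) and cell type marker list (right) in each library, as the distance from the mean of the 3 Ripk3-/- libraries, with Ripk3-/- Mlkl-/- in red above Ripk3-/- in blue and symbols for the replicate number. The basophil list lies left of every Ripk3-/- library in both Ripk3-/- Mlkl-/- libraries, while the azurophil, eosinophil and macrophage lists split the 2 Ripk3-/- Mlkl-/- libraries.

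Set against the whole series, the basophil level was low but not unmatched. Mcpt8 averaged 25.9 ± 4.18 CPM in Ripk3-/- Mlkl-/- cells (SD, n = 2) and 106 ± 26.4 CPM in Ripk3-/- cells (SD, n = 3). Among the 19 other labelled libraries 1, Mlkl-/- replicate 3, was lower than both double knockout libraries, at 13.5 CPM, and the remaining Mlkl-/- libraries were at 94.4 and 98.6 CPM. The mean log2 CPM of the basophil list was 4.30 and 4.14 in Ripk3-/- Mlkl-/- cells and ran from 3.73 to 5.62 in those 19 libraries. With Ptpn6 deleted as well, Mcpt8 was at 63.7, 70.0 and 41.7 CPM in Ripk3-/- Mlkl-/- Ptpn6∆PMN cells, against 70.8, 106 and 53.0 CPM in Ripk3-/- Ptpn6∆PMN cells. Those groups overlapped. The interferon list mean of Ripk3-/- Mlkl-/- replicate 2, 6.28, was exceeded in 1 of the 19 libraries, Mlkl-/- Ptpn6∆PMN replicate 2, at 6.60.

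**Figure D4:**
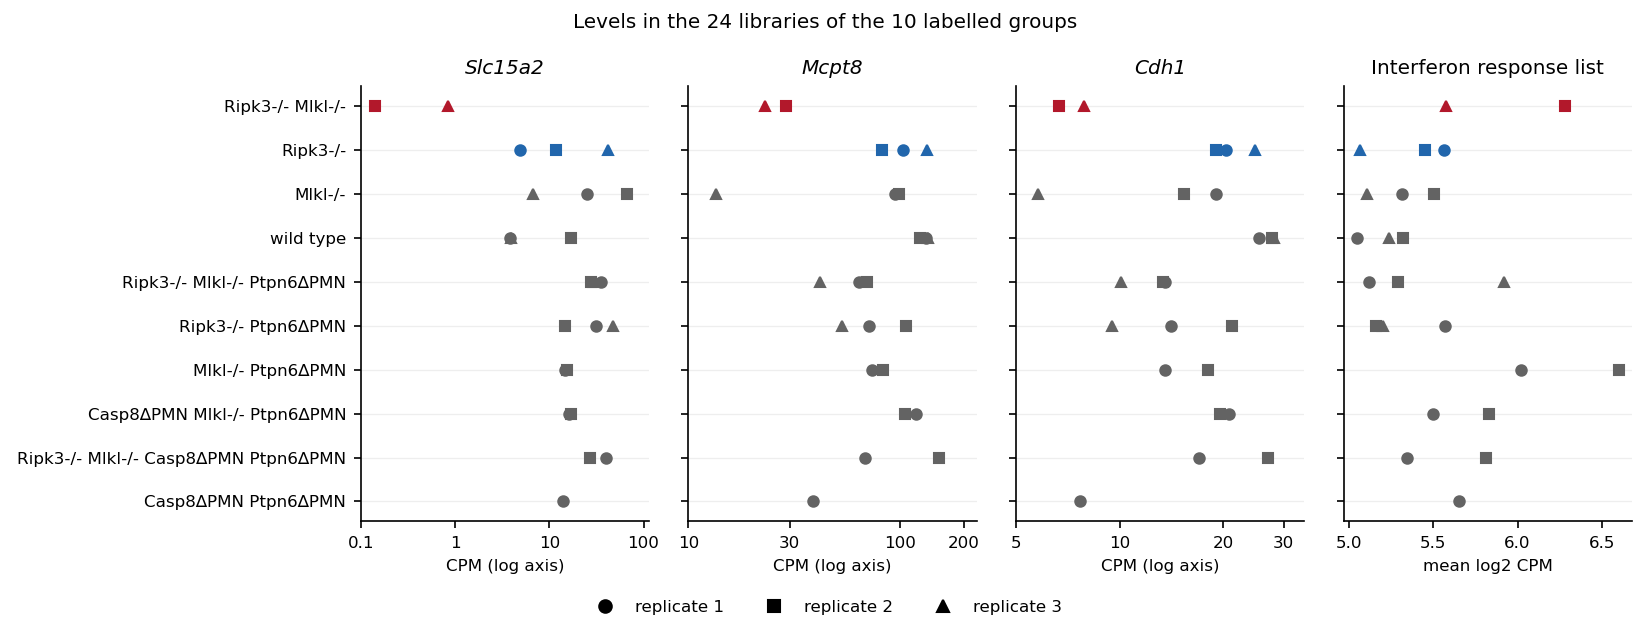
Slc15a2, Mcpt8 and Cdh1 (CPM, log axes) and the mean log2 CPM of the interferon response list in the 24 libraries of the 10 labelled groups, 1 row a group, with symbols for the replicate number. Slc15a2 is below 1 CPM in the 2 Ripk3-/- Mlkl-/- libraries alone, while Mlkl-/- replicate 3 is lower than both in Mcpt8 and Cdh1.

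More genes were called for Mlkl loss where Ripk3 was present, in a comparison with 1 more library. Between Mlkl-/- and wild type cells, edgeR called 188 of 16206 genes (1.16%), 145 higher and 43 lower. Between Ripk3-/- Mlkl-/- Ptpn6∆PMN and Ripk3-/- Ptpn6∆PMN cells it called 0 (0%), while 482 genes had an unadjusted p under 0.05 and DESeq2 called 2. The 3 comparisons share no library. They come from a fit of 23 libraries with a shared estimate of the spread, so their p-values are not independent. Of the 188 genes, 151 had the same sign in Ripk3-/- cells, where the 145 had a median log2 change of 0.16 and the 43 one of -0.19. The share with the same sign over all genes was not counted, so the 151 cannot be read as agreement between the comparisons. Over all 16206 genes, log2 changes in Ripk3-/- cells and with Ripk3 present had Pearson's r = 0.12 and Spearman's rho = 0.34. Between Ripk3-/- cells and the Ptpn6-deleted comparison, r was -0.13 and rho -0.06. Several genes of smallest p in Ripk3-/- cells were among those called with Ripk3 present. Rxra rose by 0.68 with Mlkl loss in Ripk3-intact cells (SE 0.12, edgeR adjusted p = 0.0106), Nsmf by 0.65 (adjusted p = 0.0184), Vps39 by 0.51 (adjusted p = 0.0229) and Ibtk by 0.49 (adjusted p = 0.0482). Dcun1d1 (0.48, edgeR adjusted p = 0.0316), Tnfrsf1a (0.63, adjusted p = 0.0320) and Tlr8 (0.74, adjusted p = 0.0352) rose there too. With Ripk3 and Ptpn6 both removed, Rxra had a log2 change of 0.35 (SE 0.12) and Tnfrsf1a one of -0.03 (SE 0.14), neither past the threshold. The basophil genes lay lower in all 3 comparisons without passing in any, with list medians of -1.44 in Ripk3-/-, -0.92 with Ripk3 present and -0.40 with Ptpn6 deleted, and 2 of 11 members above 0 each time. With Ripk3 present the mean log2 CPM of the list was 5.215, 5.14 and 3.73 in Mlkl-/- cells, against 5.49, 5.48 and 5.49 in wild type cells, so replicate 3 lay furthest. With Ptpn6 deleted it was 4.58, 4.73 and 4.67 in Ripk3-/- Mlkl-/- Ptpn6∆PMN cells, against 4.72, 5.46 and 4.54 in Ripk3-/- Ptpn6∆PMN cells, and those groups overlapped. The count with Ripk3 present depended on single libraries. Leaving out 1 of the wild type libraries gave 38, 40 and 57 calls for replicates 1, 2 and 3, and leaving out 1 of the Mlkl-/- libraries gave 589, 79 and 47 calls for replicates 1, 2 and 3.

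The change with Mlkl loss differed with Ripk3 status in 6 genes (0.037%), by the edgeR interaction test. Ugt1a6b, a glucuronosyltransferase gene, averaged 51.7 ± 0.682 CPM in Ripk3-/- Mlkl-/- cells and 54.0 ± 10.5 CPM in Ripk3-/- cells, and 74.6 ± 15.4 CPM in Mlkl-/- cells and 6.79 ± 3.01 CPM in wild type cells. The difference of the log2 changes was -3.52 (SE 0.39, edgeR adjusted p = 0.000543). Arl4c, a small GTPase gene, averaged 167 ± 3.67 CPM and 165 ± 28.0 CPM in the same Ripk3-deficient groups, and 184 CPM in Mlkl-/- cells and 55.7 CPM in wild type cells (difference -1.70, SE 0.25, edgeR adjusted p = 0.0169). For both genes wild type had the lowest of the 4 means. Klra17, an inhibitory Ly49 receptor gene of myeloid cells, averaged 149 ± 27.1 CPM in Ripk3-/- Mlkl-/- cells and 112 ± 9.72 CPM in Ripk3-/- cells, and 145 CPM in Mlkl-/- cells and 34.2 CPM in wild type cells (difference -1.66, SE 0.28, edgeR adjusted p = 0.0360). Hebp1, a haem-binding protein gene, missed the threshold with a difference of -2.01 (SE 0.36, edgeR adjusted p = 0.0534). The other 3 called genes, named for completeness, were the Ly49 genes Klra16 and Klra8 and the predicted gene Gm39008. Ugt1a6b starts at chr1:88103257 and Arl4c at chr1:88698225, while Klra17 starts at chr6:129831154 and Klra8 at chr6:130115226. These positions are on other chromosomes than Mlkl and Ripk3. Whether DNA that differs between the mouse lines had a part in these differences was not tested. The Ugt1a and Klra genes have near-identical relatives among which reads can be split, so their values are uncertain. Slc15a2 did not pass, with a difference of -7.26 (SE 1.41, edgeR adjusted p = 0.101) from the effect with Ripk3 present and of -5.24 (SE 1.38, edgeR adjusted p = 0.998) from that with Ptpn6 deleted. The count of 6 was 1 without Ripk3-/- Mlkl-/- replicate 2, 18 without Ripk3-/- Mlkl-/- replicate 3, and 3 without Ripk3-/- replicate 3 or wild type replicate 1. Against the Ptpn6-deleted background edgeR and DESeq2 each called 0 genes (0%), and 457 had an edgeR unadjusted p under 0.05. EdgeR called 7 without Ripk3-/- Mlkl-/- replicate 3.

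**Figure D5:**
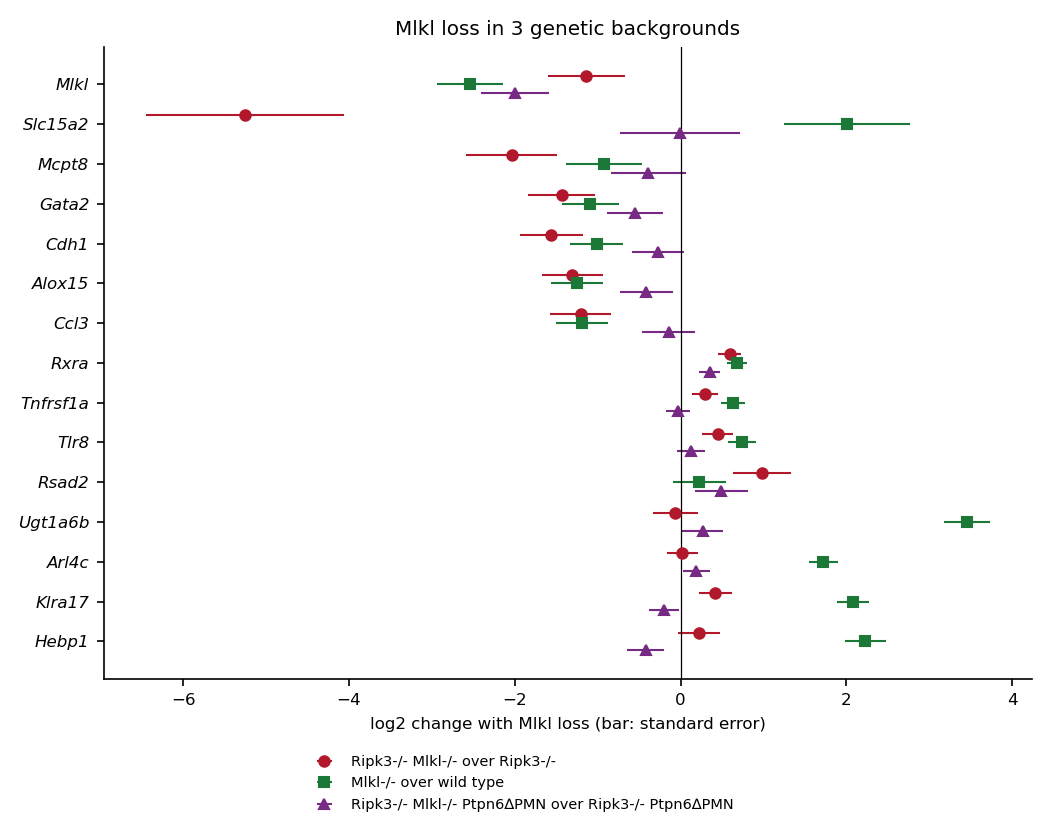
Log2 change with Mlkl loss (x axis, bars are standard errors) of 15 genes in Ripk3-/- cells (red circles), in cells with Ripk3 present (green squares) and in Ripk3-/- Ptpn6∆PMN cells (purple triangles). Ugt1a6b, Arl4c, Klra17 and Hebp1 are at 3.45, 1.72, 2.08 and 2.23 with Ripk3 present and lie nearer 0 in the other comparisons, and Slc15a2 is at -5.26, 2.01 and -0.01.

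Genes close to the targeted loci were counted because knockout alleles can carry linked DNA. Within 10 Mb of Mlkl (chr8:111311255-111338479), 0 of 162 genes tested were called by edgeR and 5 had an unadjusted p under 0.05. Groups did not overlap in 26.5% of them, and in 36.8% of the 68 within 5 Mb, against 11.6% higher and 13.4% lower over all genes. Cdh1 starts at -4.71 Mb from the start of Mlkl, so an effect of linked DNA on it cannot be told apart from one of Mlkl loss. Its log2 change with Mlkl loss was -1.01 (SE 0.32) with Ripk3 present and -0.27 (SE 0.32) with Ptpn6 deleted. Cdh1 also tracked the basophil list in the other libraries, as given above, and a part of basophils in its change was not tested. Within 10 Mb of Ripk3 (chr14:55784995-55788857), where both groups carry the knockout allele, 0 of 189 genes were called, 7 had an unadjusted p under 0.05 and groups did not overlap in 31.7%. Within 5 Mb of Ripk3 groups did not overlap in 36.4% of 129 genes, and the shares at the 2 loci were not tested against each other. Mcpt8 starts 0.297 Mb from the start of Ripk3.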

How the data were processed

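RNA of bone marrow neutrophils was sequenced after messenger RNA enrichment. The authors deposited 1 table of estimated counts per gene, made with Salmon 0.14.1 on GRCm38.p6, with DESeq2 also named, per the submitters' processing notes. The step from transcripts to genes is not given in the sources used here. The table held 35741 genes in 25 libraries and 0 columns of other samples.

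Estimated counts were rounded and tested with edgeR 4.0.16 (R 4.3.3, limma 3.58.1; TMM, quasi-likelihood test, group as the only term). Genes passed filterByExpr (minimum count 10, minimum total 15), leaving 16206. The fit held the 23 libraries of the 9 groups with at least 2 libraries, with 14 residual degrees of freedom, so the spread was pooled over groups. Benjamini-Hochberg adjusted p under 0.05 over all genes was the threshold. DESeq2 1.42.0 was an alternative, with DESeq2 size factors, no filter, the compared libraries alone, a replicate block and each library left out in turn. The steps were tested on simulated data.

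Members, gene lists (19 pathway, 13 marker) and comparisons were chosen with earlier results of these data known. Named genes were the 10 of smallest p in each direction with at least 5 CPM, up to 4 of smallest p per list and 6 per interaction. Ripk1, Zbp1, Il4, Fcer1a, Ms4a2, Cd200r3, Hdc, Il6ra, Slfn5, Irf9, Rps6, Wdr89, the ranges over other libraries and the correlations were picked after values were seen. Chromosome positions and promoters came from RefSeq tables of GRCm38.p6, which gave positions for 92.5% of tested genes. Python 3.11.15 and matplotlib 3.10.9 were used for correlations and plots.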

Additional observations from a re-analysis of the deposited data

Results flagged for a closer look

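In 6 genes the change with Mlkl loss in Ripk3-/- cells differed from that between Mlkl-/- and wild type cells by the edgeR interaction test at an adjusted p under 0.05. The difference of log2 changes was -3.52 for Ugt1a6b, -1.70 for Arl4c, -1.66 for Klra17 and -3.21 for the predicted gene Gm39008. It was 4.93 for Klra8, which averaged 0.468 CPM in Ripk3-/- Mlkl-/- cells and 0.351 CPM in Ripk3-/- cells. For Klra16 it was -7.30, a fitted value that depends on the prior count and is no bound, because all 3 wild type libraries had 0 counts. The Klra and Ugt1a genes have near-identical relatives among which reads can be split. Ugt1a6b and Arl4c lie close together on chromosome 1, as do Klra17 and Klra8 on chromosome 6. A part of DNA that differs between the mouse lines was not tested.

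Cxcr1 averaged 11.6 CPM in Ripk3-/- Mlkl-/- cells and 7.16 CPM in Ripk3-/- cells, with no overlap, and lay the other way without overlap between Mlkl-/- and wild type cells (log2 difference 1.08, unadjusted p = 0.0116, edgeR adjusted p = 0.988). Xbp1 averaged 78.9 CPM in Ripk3-/- Mlkl-/- cells and 106 CPM in Ripk3-/- cells, and also lay the other way with Ripk3 present (log2 difference -0.71, unadjusted p = 0.0034, edgeR adjusted p = 0.769). The mean log2 CPM of the necroptosis and caspase-8 list was 4.88 in Ripk3-/- Mlkl-/- cells and lay above every Ripk3-/- library, while with Ripk3 present it lay below every wild type library; the list holds Mlkl and Ripk3 themselves, and the difference was not tested.

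The library whose labels conflict, used in no comparison, had a mean log2 CPM of 5.92 over the interferon response genes.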

How the results depend on the processing

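The count of 0 called genes for Mlkl loss in Ripk3-/- cells was 1 with DESeq2 and ran from 0 to 13 with 1 library left out, the 13 appearing without Ripk3-/- Mlkl-/- replicate 3. With 1 of the 2 Ripk3-/- Mlkl-/- libraries left out, the spread of the remaining one was taken from the other groups. With Ripk3 present the count of 188 was 802 with DESeq2, 891 in a fit of the compared libraries alone, and 38 to 589 with 1 library left out. In Ripk3-/- Ptpn6∆PMN cells the count of 0 was 2 with DESeq2, 1 with a replicate block and 0 to 1 with 1 library left out. The count of 6 for the difference by Ripk3 status was 13 with no filter, 22 with DESeq2 and 1 to 18 with 1 library left out, and the count of 0 for the difference by Ptpn6 status ran from 0 to 7. The share of genes without overlap near Mlkl was 36.8% within 5 Mb. The cause of these shifts was not tested.

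The correlation of deviations of same-numbered libraries was -0.11 and 0.06 (numbers 2 and 3) in the Ripk3-/- comparison, 0.30, 0.00 and 0.09 (numbers 1 to 3) with Ripk3 present and 0.23, -0.25 and -0.34 with Ptpn6 deleted. Not every pair was over 0.1 in any comparison, so the libraries were taken to share only a number. With the replicate block the counts were 0, 163 and 1 in the 3 comparisons and 5 and 0 for the differences.

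The log2 change turned sign for Casp8 (-0.057 to 0.12 with 1 library left out), Vcam1 (-1.07 to 1.75) and Epx (-5.01 to 1.97, and -0.62 with the replicate block). The median of the basophil list stayed between -1.56 and -1.30 and that of the interferon list between 0.18 and 0.87. Medians of several lists near 0, among them the SHP-1 and Src-family, glycolysis, NADPH oxidase, chemoattractant receptor, dendritic cell, T and NK cell, granulopoiesis factor and BCL2 lists, also turned sign when 1 library was left out. Depth limited low genes most, with a median half-width of the 95% interval of 1.23 log2 units under 1 CPM and 0.34 above 100 CPM.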

Other observations

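The library left out for its conflicting labels had 2 counts of Ripk3 and 17 counts of Mlkl. Its Slc15a2 level was 10.0 CPM, its Mcpt8 level 92.1 CPM, its Cdh1 level 19.2 CPM and its Rxra level 32.4 CPM. Its mean log2 CPM was 5.24 over the basophil and mast cell genes.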
